A study of Homo sapiens with 4 samples.

Results

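The clustered histone genes were described on 4 arrays of human lung adenocarcinoma cells in which the level of G9a, the H3K9 methyltransferase encoded by EHMT2, had been changed. Members were all probe sets annotated to only 1 gene whose symbol is that of a clustered H1, H2A, H2B, H3 or H4 gene. This rule found 51 probe sets of 45 genes among 54675 probe sets in all. Of the genes, 42 lie on chromosome 6, 2 (H2AC25 and H2BC21) on chromosome 1, and H2BC12L, which the rule takes in by its symbol, on chromosome 21. H2AC5P and H4C10P are pseudogenes. A further 20 probe sets match several clustered histone genes at once and are not members.

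CL1-5 is an invasive derivative of the adenocarcinoma line CL1-0. CL1-5 carried either a control shRNA or the G9a shRNA, and CL1-0 carried either a control vector or a vector for HA-tagged G9a. All 4 populations were stably transduced and puromycin-selected, per the labels, and the labels do not say whether a population was 1 clone. Each was hybridised once, so the differences between single arrays have no replicate check and no p-value is given for them. The bright probe set of the targeted gene, EHMT2, read 376 with the control shRNA, 28.1 with the G9a shRNA, 420 with the vector and 862 with HA-G9a, in the direction of the labels. A dimmer EHMT2 probe set read 34.2, 9.98, 38.0 and 44.2, lower with the shRNA but within 2-fold with HA-G9a. The dimmest EHMT2 probe set read 2.10, 5.32, 3.58 and 7.89 and was not lower with the shRNA.

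Histones package DNA into nucleosomes, whose core is built from H2A, H2B, H3 and H4, while H1 binds the linker DNA between them. The clustered genes are transcribed mainly during DNA replication, through the coactivator NPAT, and most of their mRNAs end in a stem loop bound by SLBP and not in a poly(A) tail. Arrays of this kind are labelled by priming from poly(A), so they see such mRNAs poorly. A few members, such as H2BC12, H1-2, H2BC5 and H2AC6, are also known to give polyadenylated transcripts in cells that have left the cycle or differentiated. Histones of one type are encoded by near-identical genes, so a probe set can collect signal from several of them, above all those whose names end in _s_at or _x_at. In bulk RNA, fewer expressing cells and less RNA per cell cannot be told apart.

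Promoter windows (250 bases before to 50 after the gene's start, RefSeq, GRCh38.p14) were found for 40 of the 45 genes. The windows of 5 genes are printed here, 5′ to 3′ on the gene's strand. H2AC6, H3C7 and H3C3 are shown because their signals differed most among the brighter members, and H2BC12 and H1-2 because they were bright on every array. Capitals mark matches, on either strand, to the motifs searched: the CCAAT box, the TATAAA box, GGGCGG as the core of SP1 sites, the E-box CACGTG, and TGCAAAT as the core of the octamer motif known from histone promoters. On the other strand the CCAAT box reads ATTGG, and the octamer core reads ATTTGCA. Matches may overlap, and TATAAA does so with its own reverse in H3C7 and H2BC12. H2AC6 lies at chr6:26123922-26124221 (plus strand), H3C7 at chr6:26250586-26250885 (minus strand), H3C3 at chr6:26045134-26045433 (plus strand), H2BC12 at chr6:27146809-27147108 (minus strand) and H1-2 at chr6:26056421-26056720 (minus strand).
H2AC6: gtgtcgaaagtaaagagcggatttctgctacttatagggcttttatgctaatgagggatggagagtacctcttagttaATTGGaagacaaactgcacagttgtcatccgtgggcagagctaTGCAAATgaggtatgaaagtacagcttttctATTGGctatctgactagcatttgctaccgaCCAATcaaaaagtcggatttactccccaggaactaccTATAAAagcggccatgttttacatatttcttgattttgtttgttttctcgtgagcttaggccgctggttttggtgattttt
H3C7: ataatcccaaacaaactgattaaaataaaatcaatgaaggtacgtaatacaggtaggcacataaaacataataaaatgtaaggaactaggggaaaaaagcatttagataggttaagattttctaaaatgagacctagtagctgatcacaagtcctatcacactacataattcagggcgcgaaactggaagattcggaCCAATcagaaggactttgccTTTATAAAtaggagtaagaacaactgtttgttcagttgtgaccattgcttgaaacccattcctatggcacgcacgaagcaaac
H3C3: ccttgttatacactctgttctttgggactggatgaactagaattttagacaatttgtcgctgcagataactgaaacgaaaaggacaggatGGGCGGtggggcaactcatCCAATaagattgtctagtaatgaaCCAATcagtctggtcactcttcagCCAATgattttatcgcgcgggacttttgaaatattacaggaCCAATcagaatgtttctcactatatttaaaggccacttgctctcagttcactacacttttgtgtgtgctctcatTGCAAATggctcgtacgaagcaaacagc
H2BC12: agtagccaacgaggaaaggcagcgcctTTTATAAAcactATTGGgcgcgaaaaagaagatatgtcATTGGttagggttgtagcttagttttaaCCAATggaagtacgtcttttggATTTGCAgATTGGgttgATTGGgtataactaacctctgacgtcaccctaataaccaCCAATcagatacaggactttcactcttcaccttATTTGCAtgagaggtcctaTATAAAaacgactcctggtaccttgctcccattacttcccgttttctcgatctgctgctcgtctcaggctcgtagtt
H1-2: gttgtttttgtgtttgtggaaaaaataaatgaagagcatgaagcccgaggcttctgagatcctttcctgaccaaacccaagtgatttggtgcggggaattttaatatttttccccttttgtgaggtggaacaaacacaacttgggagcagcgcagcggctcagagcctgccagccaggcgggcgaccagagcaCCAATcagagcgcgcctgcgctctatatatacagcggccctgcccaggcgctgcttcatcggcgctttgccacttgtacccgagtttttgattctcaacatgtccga

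The members' promoters differed by histone type in the motifs they held. CCAAT was present in 35 of the 40 windows, among them all 33 of H1, H2A, H2B and H3 genes but only 2 of 7 H4 windows, against 35.7% of all 27305 windows of the same length. TATAAA was in 27 of 40 (67.5%) against 12% of all windows. The octamer core was in 6 of 8 H2A windows and 10 of 13 H2B windows, in 1 of 6 H3 windows and in 0 of the 6 H1 and 7 H4 windows, against 4.23% of all windows. In H2AC6 the octamer core stood 129 bases before the start, and H2BC12 held it at both 135 and 46 bases before the start. H3C3 held it only inside the transcribed part of the window. GGGCGG was in 8 of 40 against 44.6%, and the E-box in 0 of 40 against 7.43%. By type, GGGCGG was in 4 of 6 H1 windows (66.7%), 0 of 8 H2A, 1 of 13 H2B, 1 of 6 H3 and 2 of 7 H4 windows. These are matches of letters and not shown to be sites. In 4 pairs of an H2A and an H2B gene the windows overlap by 255 to 293 bases. A match in the overlap counts for both genes.

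Most members were dim. The filter for counting a probe set in a comparison was the median of all values on the 4 arrays, a signal of 12.5, which the brighter of the 2 arrays compared had to reach. A stricter level was the 75th percentile, 84.2. Of the 51 probe sets, 37 reached the filter on at least 1 array and 20 on all 4, and 14 stayed below it throughout. Those 14 included both probe sets of H2AC15, the only ones of H1-1, H1-5, H2BC13, H4C1, H4C9 and H4C13, both pseudogenes, and H2BC1, a testis-specific H2B, which read between 0.13 and 2.65. Signals of different probe sets are not comparable as levels of mRNA, and only each probe set's own values are compared across arrays.

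**Figure D1:**
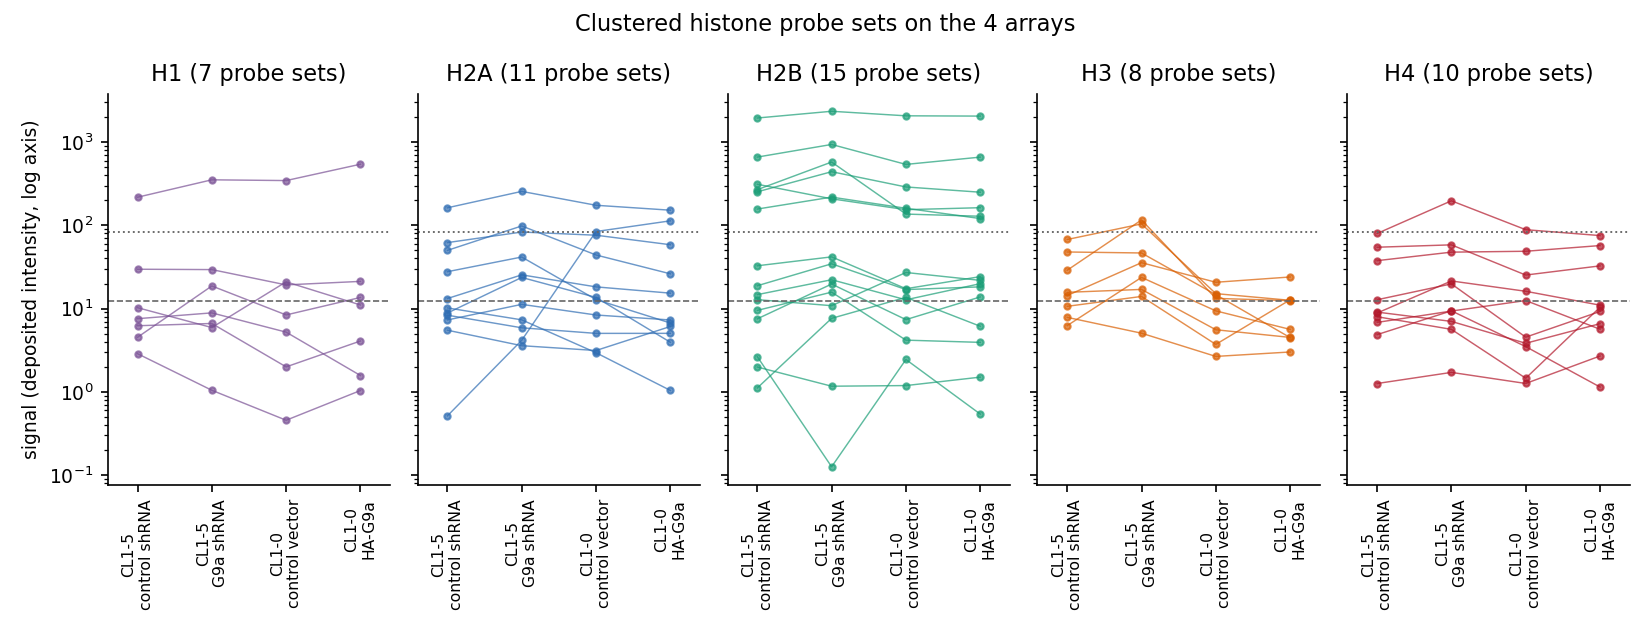
Signals of the 51 clustered histone probe sets on the 4 arrays (y axis, deposited intensity on a log scale), 1 panel per histone type and 1 line per probe set. The dashed line is the filter of 12.5 and the dotted line the stricter level of 84.2. Most H1, H3 and H4 probe sets lie under the dotted line, and 6 of 15 H2B probe sets lie above it on all 4 arrays.

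Above 84.2 on every array were 8 probe sets, those of H1-2, H2AC25, H2BC12, H2BC12L, H2BC6 and H2BC9 and both of H2BC5. H2BC12, an H2B gene with a polyadenylated transcript, read 1942 with the control shRNA, 2339 with the G9a shRNA, 2064 with the vector and 2047 with HA-G9a. All 4 values lay close together. H2AC25, the H2A gene of the small chromosome 1 cluster, read 162, 255, 174 and 152 in the same order, highest with the G9a shRNA. Its other probe set, of type _x_at, stayed between 7.31 and 11.3. H1-2, the linker histone H1.2, read 217, 352, 345 and 541, lowest in the CL1-5 control and highest with HA-G9a. For H3 the highest mean was that of H3C7 and for H4 that of H4C11, which read 79.8, 197, 88.6 and 75.3.

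Overall brightness differed between the arrays, so each log2 ratio had the median over all counted genes subtracted, and is called relative. That median was 0.42 for the knockdown, -0.08 for HA-G9a and -0.01 between the control populations. Values below 3.35, the 25th percentile of all values, were set to that floor first. As a technical yardstick, the pooled SD of relative log2 ratios among probe sets of 1 gene was 0.54 in the knockdown, 0.51 with HA-G9a and 0.65 between the controls. The SD was 0.73, 0.69 and 0.81 where the brighter signal lay between 12.5 and 84.2, and 0.30, 0.25 and 0.41 above that.

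After the G9a knockdown in CL1-5, H3C3 was the only histone gene past 2-fold among the brighter probe sets that was higher. H3C3, one of the genes for the replication-dependent H3.1, read 28.9 with the control shRNA and 116 with the G9a shRNA, against 13.3 and 12.5 in CL1-0. The knockdown array stood above the other 3, and the relative log2 ratio was 1.58, a 3.0-fold difference. Its probe set is the only one of the gene. By its brighter signal, 116, this probe set fell in the upper range of the yardstick, with an SD of 0.30. Its control signal, 28.9, was dimmer, and the yardstick was not sorted by the dimmer signal. H3C1, another H3 gene of chromosome 6, read 6.25 and 23.7, a relative log2 ratio of 1.5, but both signals were low. H1-6, the testis-specific H1t, read 4.53 and 18.7 on one probe set (1.63), and 7.57 and 8.89 on the other, which was not counted.

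H2BC5 was the one member past 2-fold that was lower, and its probe sets disagreed. Its probe set 209911_x_at read 311 with the control shRNA and 208 with the G9a shRNA, a relative log2 ratio of -1.0, just past the threshold. Probe set 222067_x_at of the same gene read 157 and 218, a relative log2 ratio of 0.06. No direction is given for H2BC5.

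By count, 33 of the 51 member probe sets were measured in the knockdown comparison, and 3 of them were at least 2-fold higher and 1 was lower. Over all 25343 probe sets counted, 16.3% passed 2-fold (8.13% higher and 8.2% lower), against 12.1% of the members, so the share of members past 2-fold was not above that of other genes. The median relative log2 ratio of the 33 was 0.21, beside -0.01 for all probe sets counted. Of the 33, 23 lay above 0. By type, all 6 counted H2A probe sets lay above 0, with a median of 0.38, but none passed 2-fold. H2AC8, with signals of 8.85 and 23.7, came closest, just under the threshold, and H2AC14 was at 0.00. The H2A probe sets under the filter mostly lay the other way. Both of H2AC15 (-1.04 and -0.92), H2AC5P (-0.90) and H2AC6 (-0.11) were below 0, and 231681_x_at of H2AC25 (0.20) was above. The 12 H2B probe sets had a median of 0.13, the 7 of H3 0.20, the 5 of H4 0.21 and the 3 of H1 0.27. At 1.5-fold 11 of 33 passed, beside 33.8% of all probe sets. With the filter at 84.2, and the median taken anew over the genes counted, H3C3 alone of 12 members passed 2-fold, beside 10.2% of all. Probe set 209911_x_at of H2BC5 was then just short of 2-fold lower (-0.995). With no centring, 9 of 33 members (27.3%) were past 2-fold, all higher, beside 22.2% of all probe sets. With the arrays scaled to one median 4 of 32 (12.5%) were, also all higher, beside 16.3% of all.

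**Figure D2:**
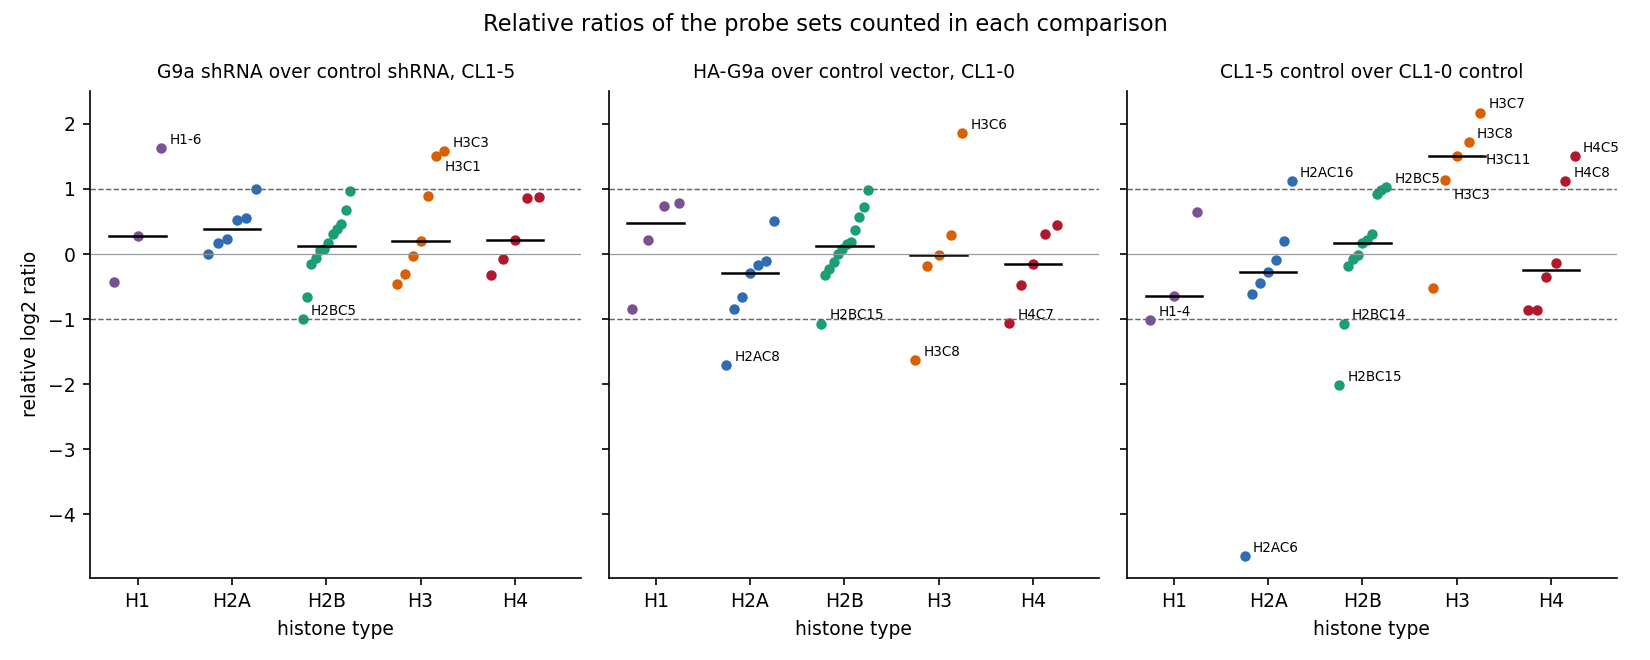
Relative log2 ratios (y axis) of the member probe sets counted in each of 3 comparisons, by histone type (x axis), with 1 point per probe set, the type's median as a bar and 2-fold as dashed lines. Members past 2-fold are named. H2AC6 at -4.64 and H3C7 at 2.17 lie farthest from 0 in the comparison of the control populations.

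HA-G9a in CL1-0 left all the brighter histone probe sets within 2-fold. For the 8 probe sets bright on every array, relative log2 ratios ran from -0.33 to 0.73. The highest was H1-2, with 541 against 345 for the vector. H2BC12L had a relative log2 ratio of 0.37, and H2BC12 of 0.07. H2AC6 read 84.3 and 113, a relative log2 ratio of 0.51.

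The 5 members past 2-fold with HA-G9a were all dim. H2AC8, an H2A gene, had signals of 13.6 with the vector against 3.95 under HA-G9a, and H3C8, measured by an _x_at probe set, 14.7 and 4.49, relative log2 ratios of -1.71 and -1.63. H2BC15 read 13.6 and 6.14, and H4C7, a divergent H4 gene, 12.5 and 5.66, relative log2 ratios of -1.07 and -1.06. H3C6 was the one higher member, at 3.72 and 12.8, with a relative log2 ratio of 1.86. Its second probe set stayed at 2.67 and 3.02, below the filter. Every one of these 5 ratios had a signal under 12.5 on 1 of its 2 arrays. By their brighter signals they fell in the range where the yardstick SD was 0.69. The yardstick was not measured separately for ratios with 1 signal under 12.5.

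By count, 33 members were measured with HA-G9a, and 1 was at least 2-fold higher and 4 lower. Over all 24404 probe sets counted, 9.64% passed 2-fold (5.86% higher and 3.78% lower), against 15.2% of the members. Among probe sets at or above 84.2 on the brighter array, 0 of 10 members passed, and 2.21% of all. At 1.5-fold 12 of 33 passed, beside 22.1% of all. The median of the 33 was -0.01, beside 0.01 for all probe sets. Of 7 H2A probe sets 6 lay below 0, with a median of -0.30, whereas H2AC6 lay above it. The H2B median was 0.12, that of H1 0.48, of H3 -0.01 and of H4 -0.15.

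The knockdown and HA-G9a comparisons share no array, so their values can be set side by side. Of 29 members counted in both, 20 (69%) lay on opposite sides of 0, 13 of them above 0 after the knockdown and below 0 with HA-G9a. Over all 22588 probe sets counted in both, 51.7% lay on opposite sides. The members' share was 64.3% with the arrays scaled to one median, 67.9% after quantile normalization and 55.2% with no centring, where it was 56% for all probe sets. None of the 29 passed 2-fold in both comparisons, and of all probe sets 2.4% did. H2AC8 came closest, with 23.7 against 8.85 in CL1-5 and 3.95 against 13.6 in CL1-0. H2AC17 had ratios of 0.55 and -0.67. H1-2 lay above 0 in both, at 0.27 and 0.73, as did H2BC4, an H2B gene, at 0.97 and 0.99. Across the 29, which share probes and genes of near-identical sequence, Pearson's r was 0.01.

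**Figure D3:**
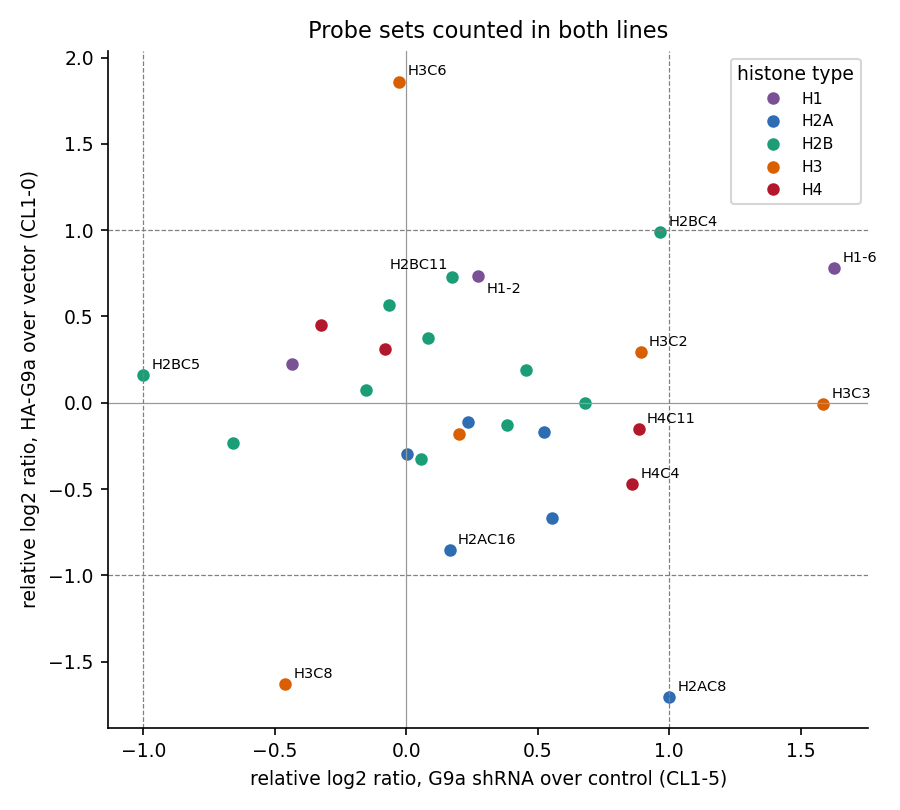
Relative log2 ratio after the G9a knockdown in CL1-5 (x axis) against that with HA-G9a in CL1-0 (y axis) for the 29 member probe sets counted in both, coloured by histone type, with 2-fold as dashed lines. H2AC8, at -1.71 on the y axis, lies farthest into the lower right, and the points show no common line (r 0.01 across probe sets).

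A limma model with the line and the G9a arm, in which the CL1-5 control and HA-G9a were the arrays with more G9a, had 1 residual degree of freedom. It called 0 of 30 members tested and 0 of 24559 probe sets (0%) at an adjusted p under 0.05 after Benjamini-Hochberg. At an unadjusted p under 0.05 it held 1 member, H2AC8, and 4.32% of all probe sets. The log2 difference of H2AC8 was -1.38 ± 0.31 (SE), with a limma adjusted p = 0.952 and both lines on the same side of 0. H3C3, whose ratio was large in CL1-5 alone, had a difference of -0.82 ± 0.49 (SE). The difference of its effect between the lines was not tested.

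Between the control populations, H2AC6 stood apart from all other members. H2AC6, a histone H2A gene known for a polyadenylated transcript, read 0.52 in the CL1-5 control and 4.17 with the G9a shRNA, against 84.3 with the vector and 113 with HA-G9a. Both CL1-5 arrays were under the filter and both CL1-0 arrays at or above 84.2. With the CL1-5 control set to the floor of 3.35, the control populations differed at least 24.9-fold relative to the median gene, a relative log2 ratio of -4.64. Its single probe set is of type _s_at. Its neighbour H2BC4, whose start lies 246 bases away on the opposite strand so that both share 255 bases of promoter window, read 7.54, 19.7, 7.38 and 13.8. Both control signals of H2BC4 were under the filter, so its ratio between the controls was not counted.

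Of the H3 probe sets of a single gene, most were higher in the CL1-5 control. H3C7 read 67.6 and 104 in CL1-5 and 15.1 and 12.6 in CL1-0, with a relative log2 ratio of 2.17 between the controls, a fold of 4.51. H3C8 read 47.9 and 46.6 against 14.7 and 4.49 (1.72), H3C11 15.7 and 17.0 against 5.58 and 4.51 (1.51), and H3C3 28.9 and 116 against 13.3 and 12.5 (1.14). Of the 5 H3 probe sets counted, 4 were thus past 2-fold and higher in the CL1-5 control, under all 4 scalings tried. Over all probe sets counted, 14% were. H3C11 reached the filter of 12.5 in CL1-5 alone, so it could be counted only by being higher there. With log2(value + 16) in place of the floor, H3C7 (1.44) and H3C8 (1.07) were past 2-fold and H3C11 (0.57) and H3C3 (0.63) were not, and at or above 84.2 no H3 probe set was counted. The fifth, H3C2, read 14.4 and 35.6 in CL1-5 and 20.7 and 24.0 in CL1-0, a relative log2 ratio of -0.51 between the controls. Probe sets that match several H3 genes, H3C7 among them, lay the other way. Probe set 206110_at, annotated to 10 H3 genes, read 34.3 and 46.4 in CL1-5 and 67.0 and 52.6 in CL1-0, a relative log2 ratio of -0.95 between the controls. Probe set 214472_at, annotated to 11 H2A and H3 genes, had a ratio of -0.82.

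Other types were split. Of 11 H2B probe sets counted, 209911_x_at of H2BC5 was 2-fold higher in the CL1-5 control (311 against 154), while 222067_x_at of the same gene read 157 against 160. H2BC9 read 268 and 575 in CL1-5 and 136 and 129 in CL1-0, a relative log2 ratio of 0.99 between the controls. H2BC14 (12.8 against 27.1) and H2BC15 (1.12 against 13.6) were past 2-fold and lower. Among the others past 2-fold, H2AC16 (27.8 against 12.8), H4C5 (12.8 against 4.55) and 208180_s_at of H4C8 (54.6 against 25.3) were higher and H1-4 (a relative log2 ratio of -1.02) lower. The second H4C8 probe set, 232035_at, read 37.7 against 48.8.

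By count, 8 of 32 members were at least 2-fold higher and 4 lower in the CL1-5 control, 37.5% against 26.3% of all 24806 probe sets (14% higher and 12.3% lower). With the filter at 84.2, and the median taken anew over the genes counted, only H2AC6 passed among 10 members, against 20.4% of all. Probe set 209911_x_at of H2BC5, at 1.03 in the main setting, was then just under 2-fold (0.98). At 1.5-fold 19 of 32 passed, beside 46% of all. The median of the 32 was -0.04. By type the median was 1.51 for H3 (5 probe sets, the value of H3C11), 0.17 for H2B, -0.25 for H4, -0.28 for H2A and -0.65 for H1. This comparison uses 1 array of each of the comparisons above.

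**Figure D4:**
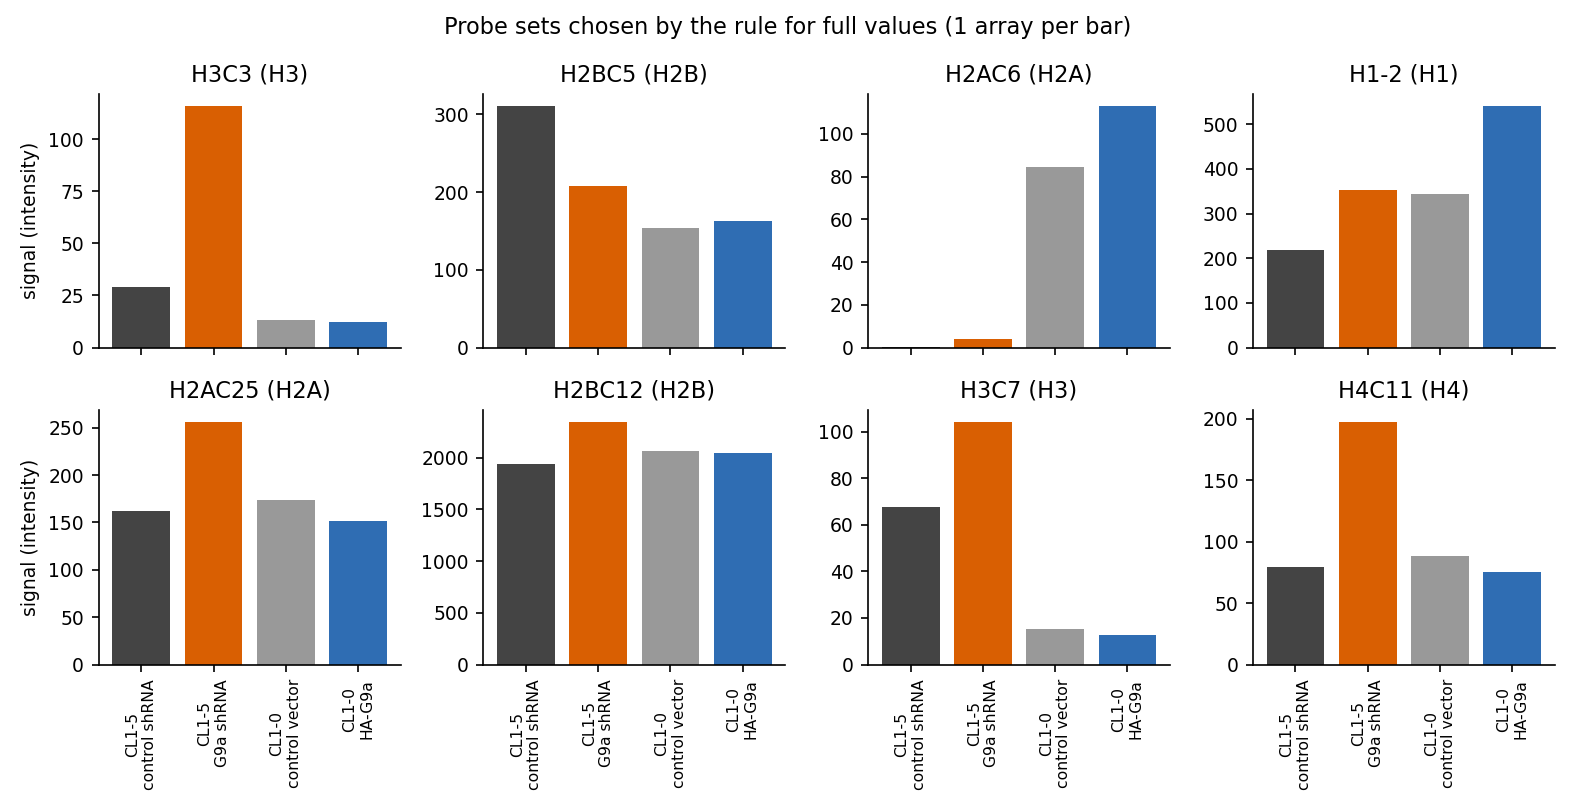
Signals (y axis, deposited intensity, linear from 0) of 8 member probe sets on the 4 arrays (x axis), each bar 1 array: those bright and past 2-fold in a comparison and the one with the highest mean signal of each histone type. H2AC6 reads 0.52 and 4.17 in CL1-5 against 84.3 and 113 in CL1-0, and H3C3 stands out at 116 with the G9a shRNA. For H2BC5 the bars show probe set 209911_x_at.

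With both arrays of each line as a group, limma tested 30 members and called 2 at an adjusted p under 0.05 after Benjamini-Hochberg, 6.67% against 4.24% of 24559 probe sets (1.73% higher and 2.52% lower in CL1-5). Each line is represented by 1 control and 1 array with altered G9a, and what G9a did is part of the error term. H2AC6 was lower in CL1-5, with a log2 difference of -5.02 ± 0.28 (SE, limma adjusted p = 0.00783), a value that contains 1 array set to the floor. Its CL1-5 signals were 0.52 and 4.17. Setting 0.52 to 3.35 brought them closer, which narrowed the spread that the SE and p-value rest on. H3C7 was higher by 2.29 ± 0.24 (SE, limma adjusted p = 0.0230). H3C11 (1.39 ± 0.24, limma adjusted p = 0.0576) and H3C3 (1.85 ± 0.58, limma adjusted p = 0.149) did not pass. At an unadjusted p under 0.05 there were 9 of 30 members and 25.6% of all probe sets. Without the CL1-0 vector array, or without the HA-G9a array, no probe set at all was called. The limma adjusted p of H2AC6 was then 0.110 and 0.0743, within a range of 0.00116 to 0.110 over 9 alternatives, and that of H3C7 was 0.172 and 0.150, within 0.0162 to 0.172.

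H2A and H2B genes often lie head to head with a shared promoter, and 4 such pairs had overlapping windows. H2AC17 and H2BC17 start 240 bases apart and had relative log2 ratios of 0.55 and 0.31 after the knockdown, and H2BC17 was below the filter in the other comparisons. H2AC14 and H2BC14, 245 bases apart, had ratios of 0.00 and -0.66, -0.30 and -0.23, and -0.28 and -1.07. Both probe sets of H2AC15 were below the filter on all arrays, and it cannot be set against H2BC15. Most of these probe sets were dim, and the larger differences include values near or under the filter.

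The listed genes that make and process histone mRNA stayed within 2-fold of the median gene in both comparisons of G9a. Of 27 listed regulators 26 were measured, and 0 passed 2-fold after the knockdown (median -0.13) or with HA-G9a (median -0.07). NPAT, the coactivator of histone transcription, read 186, 250, 135 and 134. SLBP, the stem-loop binding protein, read 605 in the CL1-5 control against 1301 with the G9a shRNA, 1496 with the vector and 1350 with HA-G9a. It was lowest in the CL1-5 control, with a relative log2 ratio of 0.68 after the knockdown and -1.29 between the controls. As deposited, with no centring, SLBP (log2 ratio 1.10), LSM11 (1.12) and the poly(A) polymerase gene TENT4A (1.12) were past 2-fold after the knockdown. LSM11, a subunit of the U7 particle that cuts histone pre-mRNA, read 150 and 324 in CL1-5 and 147 and 116 in CL1-0, with 0.69 and -0.26 as its relative log2 ratios. CASP8AP2, the U7-associated protein FLASH, read 143, 171, 197 and 147. CCNE2, a cyclin E, read 494 and 547 in CL1-5 and 150 and 151 in CL1-0, with a relative log2 ratio of 1.73 between the controls.

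Genes of the cell cycle, which sets the supply of these mRNAs, lay near the median gene. Of 29 S-phase genes measured, 0 passed 2-fold after the knockdown (median -0.01, range -0.60 to 0.42) or with HA-G9a (median 0.01, range -0.25 to 0.76). Of 20 genes of G2 and mitosis, also 0 passed in either (medians -0.02 and 0.00). Between the controls 1 S-phase gene, CCNE2, was higher and 1, CDC45, lower, with a median of -0.24. Of the G2 and mitosis genes UBE2C was higher there (1.45), with a median of -0.15. Of 12 poly(A) machinery genes measured, 0 passed in any of the 3 comparisons.

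Histone variants made outside the clusters come mostly from polyadenylated mRNAs. Of 17 listed, 12 had a single-gene probe set and 9 were counted. None passed 2-fold after the knockdown (median 0.14), and H1-10, a linker histone variant, read 574 and 1191 there, a relative log2 ratio of 0.63. With HA-G9a only MACROH2A2, a macroH2A gene, passed, at 117 against 42.5 for the vector (1.54). It read 157 and 168 in CL1-5, so it was also higher in the CL1-5 control than in the vector array (1.90). H2AX, the variant phosphorylated at DNA breaks, read 1499 and 2465 in CL1-5 and 826 and 902 in CL1-0. H2AZ1 read 2922 and 3885 against 5378 and 4402. Of 20 histone chaperones 0 passed 2-fold in either line (medians -0.09 and 0.08). With no centring, the chaperone gene ASF1B (log2 ratio 1.24) and the variant H1-10 (1.05) were past 2-fold after the knockdown. Between the controls ASF1B was lower (-1.50) and DNAJC9 higher (1.06).

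The labels give the type II alveolar cell as the origin of the tumour. Of 8 type II markers measured, 3 to 5 passed the filter on an array and none reached 84.2. The highest was NKX2-1 at 60.2 with HA-G9a, and SFTPC, surfactant protein C, ran from 6.72 to 33.5. Markers of other cells moved with the arrays: the 5 endothelial markers summed to 481 in the CL1-5 control, 100 with the G9a shRNA, 38.0 with the vector and 17.0 with HA-G9a, with 4, 1, 1 and 0 past the filter. The 6 epithelial markers summed to between 684 and 3745, mostly from KRT18, and went different ways after the knockdown, with relative log2 ratios of 4.11 for CDH1 and 1.16 for EPCAM and -1.64 for KRT8. The 5 fibroblast markers summed to between 32.3 and 115. Of 3 leukocyte markers at most 1 passed the filter on any array. Their part in the histone values was not tested.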

How the data were processed

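RNA of 4 populations was measured on 1 Affymetrix array each. The deposited intensities are 1 value per probe set on a linear scale, made with MAS5, per the submitters' processing notes. No scaling target or detection call is given in the sources used here, and MAS5 signals near background are noisy.

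The platform's annotation table named the probe sets, and Entrez identifiers brought the symbols to those of RefSeq (GRCh38.p14) for 41043 of 41097 single-gene probe sets. Probe sets of several genes (1801), unlisted ones (11777), Y-linked genes and XIST were left out. Values were floored at 3.35 and log2-transformed, and each comparison was centred on its median gene. Arrays of the same line were fitted by limma 3.58.1 in R 4.3.3 (lmFit, eBayes, Benjamini-Hochberg at 0.05), after centring each array on its median. The limma step was also run on simulated data. Unchanged probe sets were built there with no difference between the groups, so that run could not show how often false calls arise. Other steps used Python 3.11.15 and pandas 2.3.3. The number of arrays limits the precision, and no separate cultures are named, so p-values measure only the spread between these arrays.

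All members could be named. Full values went to members past 2-fold at or above 84.2 (up to 12 per direction) and to the probe set with the highest mean of each type by log2 value, with the gene's other probe sets. Of the other lists, up to 4 genes with the largest ratios could be named, and any gene of the histone mRNA control and variant lists. Other members given with values were chosen after these were seen. The members and lists were chosen with earlier results of these data known. Alternatives were scaling, centring, filter, pseudocount, probe set type, fold and leaving out arrays.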

Additional observations from a re-analysis of the deposited data

Results flagged for a closer look

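One signal appeared in histone probe sets that match several genes and so are not members. Probe set 205967_at, annotated to 14 H4 genes, read 204 in the CL1-5 control, 844 with the G9a shRNA, 1156 with the vector and 1308 with HA-G9a. After the knockdown it was above its control array by a relative log2 ratio of 1.63, the only one of 16 such probe sets counted that was 2-fold higher there, and no replicate array exists. The CL1-5 control was the lowest of the 4 arrays, with a relative log2 ratio of -2.49 against the vector. SLBP was also lowest on that array, at 605 against 1301, 1496 and 1350, and its part in this was not tested. Probe set 207046_at, annotated to the same H4 genes, read 24.7, 16.4, 10.8 and 9.01. Its relative log2 ratio was -1.01 after the knockdown and 1.21 between the controls. Probe set 208580_x_at, also annotated to 14 H4 genes, read 109, 168, 65.3 and 72.4, with ratios of 0.21 and 0.75. The H4 probe sets thus do not give 1 direction, and both of these were higher in the CL1-5 control than with the vector.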

How the results depend on the processing

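The main counts of members past 2-fold were 4 after the knockdown, 5 with HA-G9a and 12 between the controls. With the filter at the 75th percentile they were 1, 0 and 1, and with log2(value + 16) 1, 0 and 3. The shares of all probe sets fell too, to 10.2%, 2.21% and 20.4% with that filter and to 7.4%, 1.73% and 14.2% with log2(value + 16). At 1.5-fold the counts were 11, 12 and 19, beside 33.8%, 22.1% and 46% of all probe sets. With no filter the knockdown count was 8 of 51, beside 16.2% of all, and with no centring 9 of 33, beside 22.2% of all. Scaling to one median, quantile normalization, centring on the median probe set, 1 probe set per gene and leaving out _s_at and _x_at probe sets kept all 3 counts within 1.5 times. So did, chosen after seeing the data, adding the probe sets of several histone genes and leaving out H2BC12L and the pseudogenes. The line fit called 2 of 30 members in the main setting, beside 4.24% of all probe sets. At the 75th percentile it called 1 of 10, beside 9.87% of all. Without _s_at and _x_at probe sets, which leaves out H2AC6, it called 1 of 18, beside 4.84% of all. Leaving out 1 array left a single array for that line. The log2 difference of H2AC6 then ran from -5.28 to -4.77 and that of H3C7 from 2.16 to 2.41. Of 30 members tested in each fit, 14 in the line fit and 7 in the fit by G9a arm changed the sign of their difference under some alternative, and none of these had been called. No paired analysis was possible because each group has 1 array and so no replicate numbers to pair by, other than the fit by G9a arm, which compares arrays within each line. For single members the cause of such moves was not tested. Signals near 12.5 limit the ratios of most members.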

Other observations

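The 20 probe sets that match several clustered histone genes gave values beside the members. Of the 16 counted after the knockdown, 1 was 2-fold higher and 1 lower, with a median relative log2 ratio of 0.20. With HA-G9a 0 of 15 passed 2-fold, with a median of 0.26. Between the controls 3 of 16 were higher in CL1-5 and 1 lower, with a median of 0.26. Probe set 214290_s_at, annotated to H2AC18 and H2AC19, a pair of H2A genes, read 251 and 396 in CL1-5 and 158 and 231 in CL1-0. Probe set 208490_x_at, annotated to 5 H2B genes, read 220, 362, 155 and 161.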
